A study of Mus musculus with 3 samples.

Results

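The whole cell suspension of a liver punch taken after irreversible electroporation (IRE) was compared between the library labelled 7 days and the library labelled 1 day after injury, with every cell barcode that held at least 200 detected genes taken as a member and the barcodes of a library added up gene by gene. The comparison held 14877 of the 25263 such barcodes in the series, 9253 from the library labelled 1 day and 5624 from the library labelled 7 days. IRE kills the cells between a pair of electrodes with strong electric pulses. Here the electrodes were laid on the upper and lower surface of 1 liver lobe of adult C57BL/6 mice, and 8 pulses of 50 ms were given at 75 V according to the labels. A punch of 4 mm from the electroporated area was digested with enzymes, red cells were lysed and single cells were captured with barcoded beads (Drop-seq), which tag each RNA molecule with a unique molecular identifier (UMI). The third library of the series, labelled control, came from mice with sham surgery, taken after 1 day at the same but uninjured place, and its values are given for reference. Each library was a pool of 3 livers, so that each condition was 1 sample. There is no test across animals, no p-value is given, and all intervals are 95% intervals that cover counting error only.

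An injured liver is entered by neutrophils and by Ly6C-positive monocytes from the blood, which are drawn by CXC and CC chemokines. The cells that belong to the uninjured organ are the hepatocytes, which make albumin and most plasma proteins, the Kupffer cells, which are the resident macrophages of the sinusoids, and the sinusoidal endothelial cells, which take up waste from the blood. Dead cells are cleared by macrophages through receptors for phosphatidylserine and complement C1q, and a provisional matrix of glycoproteins precedes collagen in a wound.

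The kept barcodes held 6107866 UMIs in the library labelled 1 day and 3058967 in the library labelled 7 days, with medians of 509 and 456.5 UMIs per barcode, beside 8013800 UMIs in control. Between 20.1% and 33.2% of the UMIs of a library lay in barcodes under 200 genes and were left out. Mitochondrial genes took 20.5% of the UMIs in control, 21.7% in the library labelled 1 day and 4.10% in the library labelled 7 days. The libraries labelled 1 day and 7 days shared 149 barcode sequences. The injured area labelled 1 day held fewer neutrophil and monocyte transcripts than control and more hepatocyte, Kupffer cell and endothelial transcripts, while the library labelled 7 days held the most neutrophil transcripts. The summed neutrophil markers, for example, stood at 677 counts per 1000000 UMIs (CPM) in control, 208 in the library labelled 1 day and 8950 in the library labelled 7 days. No engineered gene or other tag in the files allows these labels to be checked. An exchange of labels among the 3 libraries was not tested and would change what each ratio compares, and directions are therefore stated as between the libraries so labelled.

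A gene was compared when it held at least 50 UMIs in both libraries together, and it was called higher or lower when its CPM values differed at least 2-fold. Of 19091 genes in the files 10271 were compared, 1190 were higher in the library labelled 7 days (11.6% of the genes compared) and 2853 were lower (27.8%). The difference reached 10-fold upward for 189 genes and downward for 857. The median log2 ratio of all genes compared was -0.23, and the middle part of the genes, between the quartiles, ran from -1.17 to 0.40. With mitochondrial genes left out of the totals every log2 ratio moved by -0.29 and the calls became 872 higher and 3555 lower. With the trimmed mean of M values (TMM) as scaling all ratios moved by 0.22, and 1607 genes were higher and 2489 lower, so that 29.4% of the called genes were higher as totals stand, 19.7% without mitochondrial genes and 39.2% with TMM. With hepatocyte markers left out as well 811 were higher and 3724 lower, and with median-of-ratios scaling 1707 and 2408. A fold near the 2-fold limit is therefore less firm than the larger folds that follow.

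**Figure D1:**
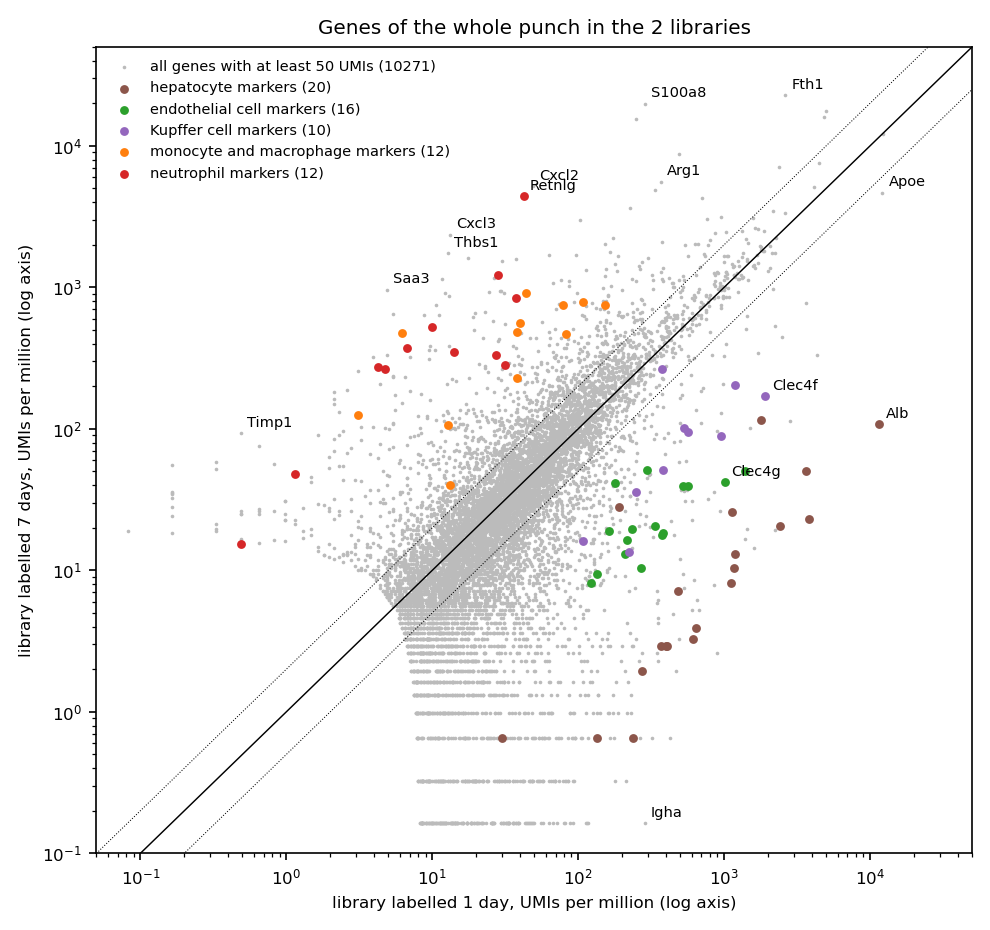
Level of each gene (CPM) in the library labelled 7 days (vertical, log scale) against the library labelled 1 day (horizontal, log scale), with genes at 0 UMIs drawn at the level of 0.5 UMI and dotted lines at a 2-fold difference. The named genes higher at the 7-day label are those of neutrophils, chemokines and the provisional matrix, with Arg1, Fth1, Saa3 and Timp1. Those lower are genes of hepatocytes, plasma cells, sinusoidal endothelium (Clec4g) and Kupffer cells (Clec4f), with Apoe. Of all genes compared 857 were at least 10-fold lower and 189 at least 10-fold higher.

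Barcodes were next assigned to 13 lineage gates. A barcode entered a gate when it held at least 2 different markers of the lineage. It also had to hold at least 2 times as many of them as of any other gated lineage. Hepatocyte, plasma cell and erythroid markers were read as lists only and formed no gate. A gate is a rule on markers, and 36.0% of barcodes in the library labelled 1 day and 32.9% in the library labelled 7 days entered none. Endothelial barcodes were 15.7% in control, 37.6% (36.6 to 38.6) in the library labelled 1 day and 1.51% (1.21 to 1.87) in the library labelled 7 days, a 24.9-fold lower share at the later label. Kupffer cell barcodes were 14.0%, 21.9% (21.1 to 22.8) and 2.49% (2.10 to 2.93) in the same order. The resident cells of the sinusoid thus held most gated barcodes of the library labelled 1 day and few of the library labelled 7 days.

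Myeloid barcodes went the other way. Monocyte and macrophage barcodes were 21.2% in control, 0.605% (0.457 to 0.785) in the library labelled 1 day and 31.1% (29.9 to 32.3) in the library labelled 7 days, and neutrophil barcodes were 1.87%, 0.195% (0.115 to 0.307) and 29.7% (28.6 to 31.0). The later share was 51.4-fold and 153-fold that at the 1-day label. Neutrophils carry little RNA, and their share at the 7-day label ran from 13.2% of barcodes with at least 400 genes to 44.1% of all deposited barcodes, while with each barcode thinned to 300 UMIs it was 30.5%. At the 1-day label the corresponding shares were 0 of 2635 barcodes, which allows up to 0.114%, then 0.259% and 0.212%, so that the direction was the same throughout. Of the smaller gates, T cells took 1.33% and 1.39% of barcodes at the 1-day and 7-day labels, B cells 0.854% and 0.160%, and mesenchymal cells 0.0648% and 0.0178%, beside 1.94% in control. No mesothelial barcode was found among 5624 at the 7-day label, which allows a share of up to 0.0533%.

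**Figure D2:**
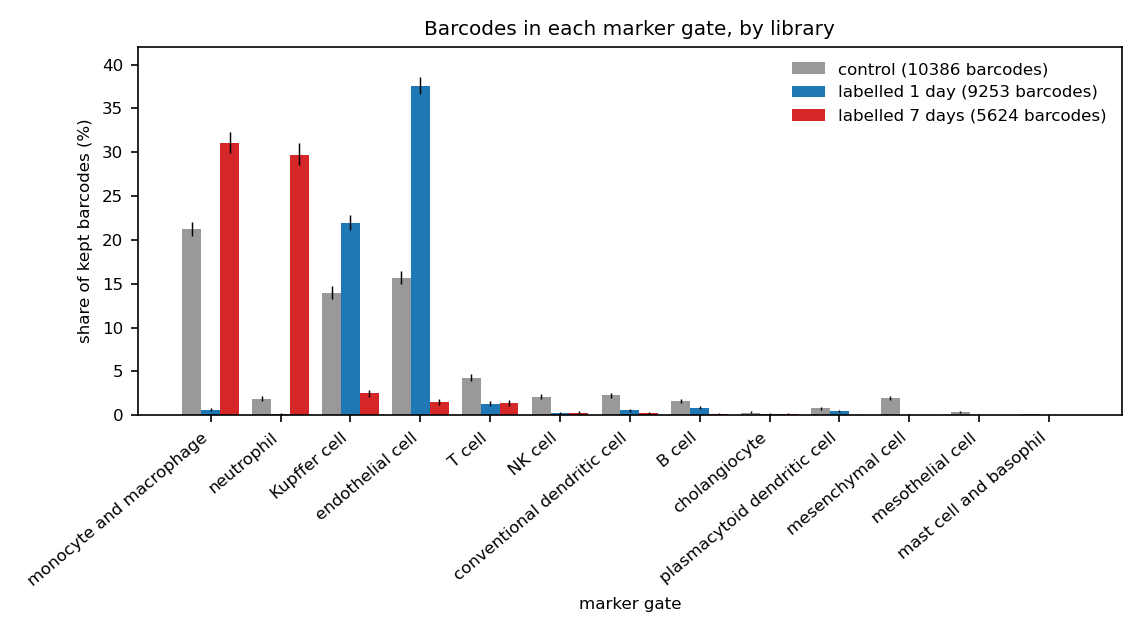
Share of kept barcodes (vertical, percent) in each lineage gate (horizontal) for the libraries labelled control, 1 day and 7 days, with exact binomial 95% intervals that cover counting error only. Neutrophil barcodes went from 0.195% to 29.7% between the 1-day and the 7-day label and endothelial barcodes from 37.6% to 1.51%.

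Neutrophil genes were higher at the 7-day label in all 12 markers of the list, with a median log2 ratio of 5.41 against -0.23 over all genes compared. Retnlg, a secreted resistin-like protein of neutrophils, stood at 343 CPM in control, 42.4 in the library labelled 1 day and 4422 in the library labelled 7 days, 104-fold higher at the later label (92.2 to 118). Cxcr2, the receptor that takes neutrophils towards CXC chemokines, went from 28.3 to 1221 CPM, a ratio of 43.1 (37.0 to 50.5). In a sum over the whole punch more cells of a type and more RNA per cell cannot be told apart. S100a8 and S100a9, which form calprotectin, were 69.1-fold and 61.6-fold higher and stood at 19867 and 15435 CPM at the 7-day label. Of 10 calprotectin, stefin and granule genes 9 were higher, with a median of 5.46, and Slpi, an inhibitor of neutrophil elastase, was 50.9-fold higher (43.9 to 59.3). Gm5483, a gene of the stefin family that may share reads with its close copies, was 121-fold higher (85.5 to 176).

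Of all UMIs at the 7-day label 26.3% lay in the neutrophil gate and 33.2% in the monocyte and macrophage gate. Of the S100a8 UMIs 64.6% lay in the neutrophil gate, at 48868 CPM of that gate's UMIs. The other gates held between 4771 and 6775 CPM, and barcodes outside all gates 13147. S100a8 was thus measured in T cell and endothelial barcodes too, which are not known to make it, and neutrophil markers took 0.156% to 0.296% of the UMIs of the non-neutrophil gates. The part of free RNA in these levels was not tested.

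All 12 monocyte and macrophage markers were higher at the 7-day label, with a median log2 ratio of 3.16. Ccr2, the receptor for CCL2 by which monocytes leave the marrow, stood at 411 CPM in control, 78.9 at the 1-day label and 750 at the 7-day label, a ratio of 9.50 (8.61 to 10.5). Ly6c2, the surface protein of inflammatory monocytes, was 7.36-fold higher (6.75 to 8.03). Arg1, arginase 1, rose from 368 to 5593 CPM, 15.2-fold (14.5 to 15.9), with 43.6% of its UMIs at the 7-day label in the monocyte and macrophage gate. The arginase and alternative activation list held 6 of 7 genes higher, among them Chi3l3, the chitinase-like Ym1, at 98.5-fold (77.9 to 126), and 1 lower, the mannose receptor Mrc1, which Kupffer and sinusoidal endothelial cells also carry and which was 7.41-fold lower. Of 18 genes for lipid handling and the lysosome 10 were higher and 1 lower. Lgals3, galectin-3, was 16.0-fold higher and the protease Ctsd 3.18-fold higher, while Apoe fell from 12113 to 4668 CPM, 2.60-fold lower, and was 11364 in control.

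Chemokines for neutrophils and monocytes were nearly all higher. All 8 neutrophil-directed chemokines and receptors compared were higher, with a median log2 ratio of 4.52, as were 11 of 12 monocyte-directed ones, with a median of 4.74. Cxcl2 stood at 58.0 CPM in control, 49.3 at the 1-day label and 5222 at the 7-day label, 106-fold higher (94.5 to 119). Cxcl3 went from 13.3 to 2359 CPM, 178-fold (143 to 224), from 5.49 in control. Both ligands act on CXCR2. In the neutrophil gate lay 54.2% of the Cxcl2 and 42.9% of the Cxcl3 UMIs of the 7-day label, beside 26.3% of all UMIs. In the monocyte and macrophage gate lay 16.0% and 24.7%, beside 33.2% of all UMIs. Ccl2, the ligand of CCR2, was 92.2-fold higher (76.1 to 113) and had 45.9% of its UMIs in the monocyte and macrophage gate. Cxcl5 held 1 UMI at the 1-day label and 74 at the 7-day label, so that its ratio of 148 has an interval from 25.7 to 5914.

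Of 11 chemokine genes and receptors for lymphocytes 1 was higher and 4 were lower, with a median log2 ratio of -0.59, beside 11.6% higher and 27.8% lower over all genes compared. The gene higher was Cxcl10, a ligand of CXCR3, at 4.61-fold (4.11 to 5.18), and Ccl5 stood at 372 and 455 CPM. Among 12 inflammatory cytokines and feedback genes of NF-kB 10 were higher and none lower, with a median of 2.83. Il1b went from 96.3 to 1687 CPM, 17.5-fold (16.1 to 19.1), with 53.2% of its UMIs at the 7-day label in the neutrophil gate. The IL-1 receptor antagonist Il1rn and the decoy receptor Il1r2 were higher with it, 29.1-fold and 52.2-fold. Osm, a cytokine of the IL-6 family made by neutrophils and macrophages, was 81.4-fold higher (54.4 to 128).

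The promoters of Cxcl2 and Cxcl3 are shown because both genes rose over 100-fold and both hold the letters GGAATTTCC, a palindromic NF-kB motif, searched on both strands. Among the 7 promoters found for the list, taken from RefSeq on GRCm38.p6 as 250 bases before to 50 bases after the gene start, these 2 held it (28.6%), against 0.317% of all 32851 promoters. Of 7 motifs searched in 3 lists this was 1, and the lists were chosen with values known, so that a match is a description of letters and not of a bound site. Capitals mark the motif, and the windows are chr5:90903793-90903820 and chr5:90786019-90786046, both on the plus strand.
Cxcl2: ctgagctcagGGAATTTCCctggtcccc
Cxcl3: agctgcggggGGAATTTCCccagcccgg

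Glycolysis and low-oxygen genes were higher at the 7-day label in 20 of 23 members compared, and 1 was lower, with a median log2 ratio of 2.66. Their sum was 2168 CPM in control, 1879 at the 1-day label and 12303 at the 7-day label. Along the pathway, Slc2a1, the glucose transporter GLUT1, was 21.1-fold higher (15.8 to 28.7), Aldoa 8.16-fold, Gapdh 5.50-fold (5.24 to 5.77), Pgk1 10.0-fold, Pkm, pyruvate kinase, 10.9-fold (10.2 to 11.7) and Ldha, lactate dehydrogenase, 3.78-fold. Slc16a3, which exports lactate, stood at 20.6 CPM in control, 7.04 at the 1-day label and 322 at the 7-day label, 45.7-fold higher (33.7 to 63.5). The genes that low oxygen is known to induce moved with them, with Egln3, an oxygen-sensing prolyl hydroxylase, 35.3-fold higher, Hilpda, a lipid droplet protein, 33.7-fold higher, Vegfa 4.14-fold and Hif1a 6.32-fold higher. The exceptions were Adm, adrenomedullin, which was 2.73-fold lower on 109 and 20 UMIs, and Pdk1 and Ndrg1, whose ratios were 1.40 and 1.20.

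The letters ACGTG, the core of the hypoxia response element, are printed for the members with large ratios whose promoter holds them. Of 30 promoters found for 21 of the 23 members 16 held ACGTG on either strand (53.3%), in 15 of the 21 members, against 19.6% of all promoters of the same length. The related letters GCGTG were in 56.7% of the list's promoters and 32.4% of all. The short motif is frequent, it overlaps its own reverse complement in CACGTG, and its last base can be the first of a GCGTG on the same strand. The windows are on GRCm38.p6, in the direction of the gene, with the motif in capitals: Slc2a1 at chr4:119108697-119108724 on the plus strand, Slc16a3 at chr11:120949028-120949055 on the plus strand, Hilpda at chr6:29272571-29272598 on the plus strand, Egln3 at chr12:54204088-54204115 on the minus strand and Pgk1 at chrX:106186938-106186965 on the plus strand. In the printed windows the motif starts between 229 and 27 bases before the gene start, and the Slc16a3 and Pgk1 promoters hold another match outside them.
Slc2a1: gtcccgccccggACGTGctccccaggcc
Slc16a3: caggcagcggtgACGTGcgcgggggacg
Hilpda: gatggccagcggACGTGccccagggcga
Egln3: tgtgcatctcagACGTGagatccaggtt
Pgk1: gcgtcgtgcaggACGTGacaaatggaag

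Interferon-induced genes were higher at the 7-day label in 10 of 15 members and lower in 1, with a median log2 ratio of 1.49 and a sum of 3893 CPM in control, 3848 at the 1-day label and 7912 at the 7-day label. Rsad2, the antiviral enzyme viperin, was 5.39-fold higher (4.97 to 5.85), and Ifi27l2a 2.24-fold, a call that was lost when mitochondrial genes were left out of the totals. The restriction factors Ifitm3 and Bst2 had ratios of 1.87 and 0.942. The letters GAAA, 2 bases of any kind and GAAA again, of the interferon-stimulated response element, searched on both strands with overlapping matches counted, were in 7 of 11 promoters found for 10 members (63.6%) and in 3.44% of all promoters. They are shown for Isg15, a ubiquitin-like protein, at chr4:156200872-156200899 on the minus strand. For Ifit1, an RNA-binding protein, the window is at chr19:34640776-34640803 on the plus strand, where the match lies on the opposite strand. The Isg15 window holds further matches that overlap the one in capitals, and the Ifit1 promoter holds another outside its window.
Isg15: taggaaaagGAAACCGAAAcagaaaata
Ifit1: aggcttcagTTTCACTTTCcagtctcag

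Matrix genes moved in both directions. Of 17 matricellular and provisional matrix glycoproteins 5 were higher and 10 lower, and the median log2 ratio was -1.88, while their sum rose from 2061 to 7941 CPM with Spp1 and Thbs1 as large parts of it. Thbs1, thrombospondin-1, stood at 24.5 CPM in control, 12.8 at the 1-day label and 1745 at the 7-day label, 137-fold higher (109 to 173). Its UMIs at the 7-day label lay to 34.5% in the neutrophil gate and to 30.0% in the monocyte and macrophage gate. These gates held 26.3% and 33.2% of all UMIs at that label. Spp1, osteopontin, went from 711 to 4314 CPM, 6.07-fold (5.86 to 6.28), and Tgfbi was 20.9-fold higher. Sparc, a collagen-binding protein of endothelial and mesenchymal cells, was 1022 in control, 455 at the 1-day label and 81.1 at the 7-day label, 5.61-fold lower.

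Collagens were lower in all 8 members compared of 16 listed, with a median log2 ratio of -2.38, and their sum fell from 389 CPM to 75.2, beside 2317 in control. Col3a1, a fibrillar collagen, was 700 CPM in control, 19.8 at the 1-day label and 5.23 at the 7-day label, and Col1a2 was 842, 12.3 and 3.27. The fibrillar collagens were thus highest in the control library. Col4a1, of the basement membrane, was 136, 164 and 28.4 CPM in the same order, 5.77-fold lower at the 7-day label. Col1a1 did not reach the minimum and held 17 and 8 UMIs. The proteoglycans contained both directions, with 2 of 9 higher and 4 lower, beside 11.6% higher and 27.8% lower over all genes compared. Srgn, serglycin of myeloid granules, went from 490 to 8816 CPM and Vcan, versican of monocytes, 82.5-fold higher (52.5 to 138). Of 16 proteases, inhibitors and crosslinkers of the matrix 10 were higher and 2 lower, with a median of 2.73. Among them Mmp8, the collagenase of neutrophils, was 55.7-fold higher and Tgm2, a crosslinking transglutaminase, 3.79-fold higher. Timp1, an inhibitor of metalloproteinases, went from 3 to 286 UMIs, a ratio of 190 (64.5 to 928), and Timp3, which is bound to matrix, was 10.6-fold lower. Saa3, the serum amyloid A of macrophages and stroma, was 243 CPM in control, 4.91 at the 1-day label and 964 at the 7-day label, 196-fold higher (137 to 292).

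Hepatocyte transcripts showed large falls. All 20 markers were lower at the 7-day label, with a median log2 ratio of -6.92, and together they took 0.183% of UMIs in control, 3.16% at the 1-day label and 0.0432% at the 7-day label, a 73.3-fold lower share. Alb, albumin, stood at 533 CPM in control, 11571 at the 1-day label and 108 at the 7-day label, 107-fold lower. Apoa2 was 166-fold lower, Car3, a carbonic anhydrase, went from 2588 to 2 UMIs, and Cps1, the entry enzyme of the urea cycle, from 1444 to 2. At the 1-day label Alb was found in every gate examined, at 3501 to 9093 CPM, and at 15886 outside the gates. Hepatocyte markers took 1.36% to 2.44% of the UMIs of the 5 gates listed for that library and 0.0191% to 0.0523% at the 7-day label. These transcripts were thus also measured in barcodes of other cells, and the part of free RNA was not tested. The family members of Serpina1 and Mup are near copies, and reads can be split among them.

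Lists of hepatocyte functions were lower too. All 12 zonation genes were lower, with a median of -6.76 in which a gene at 0 ranks lowest, among them Pck1 of gluconeogenesis at 467 and 1.96 CPM and Glul, glutamine synthetase of the central vein, 2.05-fold lower, a call that was lost with TMM. Of 15 coagulation and complement genes 13 were lower, and F10, coagulation factor X, was 3.88-fold higher (3.56 to 4.22). Of 15 acute phase genes 11 were lower and 2 higher. Hp, haptoglobin, which neutrophils also store, stood at 465 and 626 CPM while Hpx, hemopexin, was 41.4-fold lower. Plasma cell genes were lower in 5 of 5 compared, and Igha, the heavy chain of IgA, held 258 UMIs in control, 1750 at the 1-day label and 0 at the 7-day label, at least 292-fold lower with 3 UMIs as the floor.

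**Figure D3:**
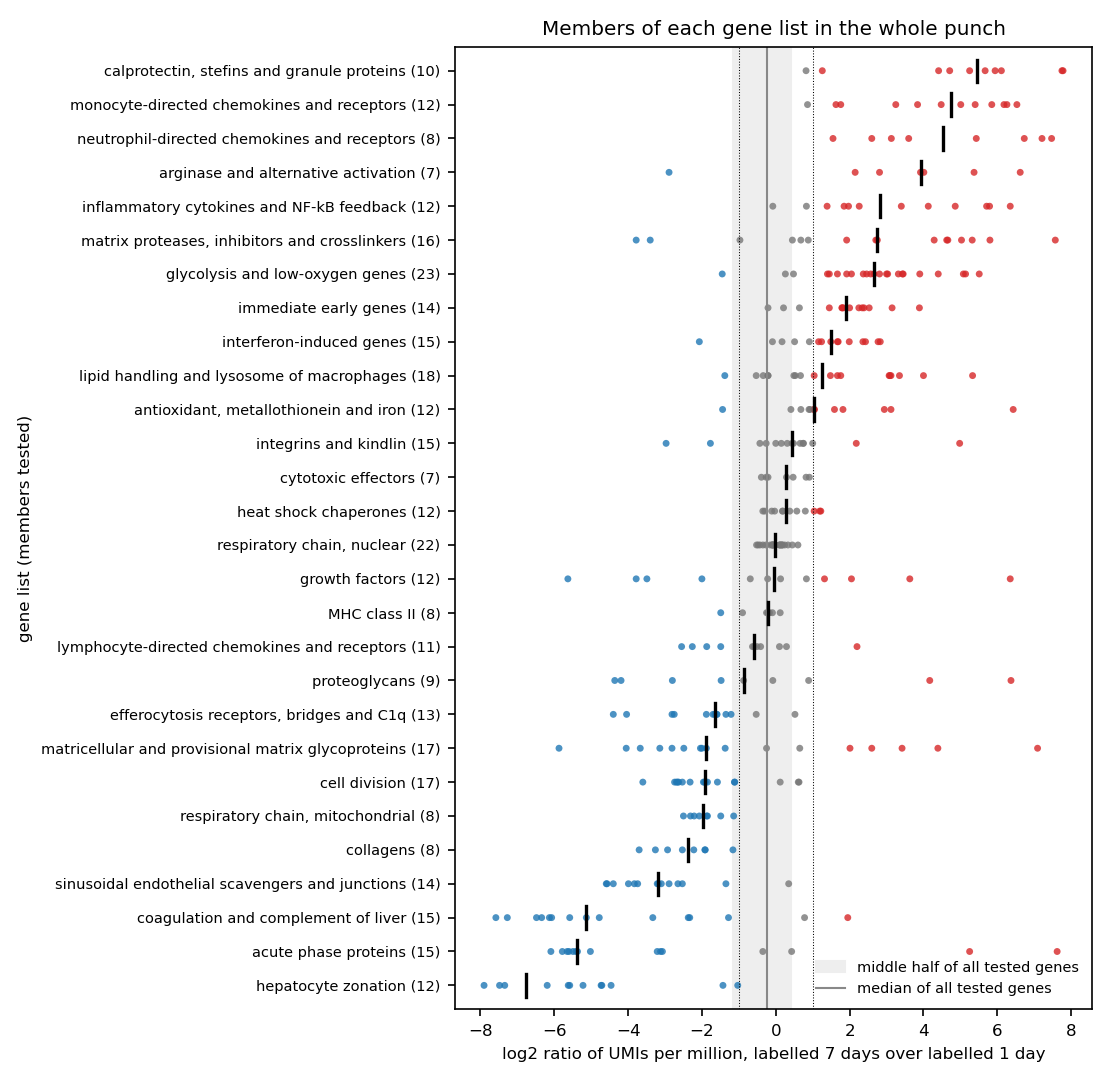
Log2 ratio of CPM, library labelled 7 days over library labelled 1 day, for each member of the gene lists (points, coloured by whether they were called), with the median of each list as a black tick and the middle range of all genes compared as a grey band. Granule, chemokine and glycolysis genes lie to the right, with medians of 5.46, 4.74, 4.52 and 2.66, and hepatocyte zonation genes to the left, with a median of -6.76.

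Genes of the sinusoidal cells were lower. All 16 endothelial markers were lower at the 7-day label, with a median log2 ratio of -3.87, and so were 13 of 14 scavenger and junction genes, with a median of -3.19. Clec4g, a lectin of sinusoidal endothelium, stood at 306 CPM in control, 1008 at the 1-day label and 41.8 at the 7-day label, 24.1-fold lower. Dnase1l3, which degrades DNA in the blood, was 23.8-fold lower and Stab2, a scavenger receptor for hyaluronan, 21.2-fold. Of 10 Kupffer cell markers 9 were lower, with a median of -2.78. Clec4f, the lectin that marks Kupffer cells, went from 1920 to 171 CPM, 11.3-fold lower, beside 946 in control. Of 13 genes for the uptake of dead cells 11 were lower and none higher, with a median of -1.65 and a sum of 4387 CPM in control, 4869 at the 1-day label and 1766 at the 7-day label. C1qa, a chain of complement C1q, was 3.67-fold lower and C1qb 2.31-fold lower, and the call of C1qb was lost with TMM. Of 12 growth factors compared 4 were higher, 4 were lower and 4 were not called, beside 11.6% higher and 27.8% lower over all genes. Their median log2 ratio was -0.04. Among the lower, Igf1 and Rspo3, the latter from central vein endothelium, were 13.8-fold and 11.3-fold lower, and among the higher were Osm and Vegfa, given above.

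The respiratory chain differed by genome. All 8 mitochondrially encoded genes were lower, with a median log2 ratio of -1.97, and mt-Cytb went from 3620 to 780 CPM. None of the 22 nuclear-encoded genes was called, with a median of -0.03 and sums of 7579, 7397 and 7638 CPM in control, at the 1-day and at the 7-day label. The mitochondrial share also moved with the library as a whole, as given above, and its part here was not tested. Iron storage was higher, with Fth1, ferritin heavy chain, at 4508 CPM in control, 2630 at the 1-day label and 22814 at the 7-day label, 8.67-fold (8.53 to 8.82), and Ftl1 3.53-fold higher. Of 12 antioxidant, metallothionein and iron genes 7 were higher and 1 lower. Immediate early genes, which enzymatic digestion is also known to induce, were higher in 11 of 14, with Fos 5.76-fold and Ier3 14.9-fold higher. Of 12 heat shock chaperones 3 were higher, where 11.6% of all genes compared were higher. Among the 3 was Hspa5 at 2.34-fold, a call that was lost without mitochondrial genes.

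Cell division genes were lower in 14 of 17, with a median log2 ratio of -1.93, and none was higher. Mki67, a marker of cycling cells, was 265 CPM in control, 102 at the 1-day label and 17.7 at the 7-day label, 5.76-fold lower, while Pcna, of DNA replication and repair, stood at 70.4 and 109. The class II antigen presentation genes were called in 1 of 8 (lower), where 27.8% of all genes compared were lower. H2-Ab1 stood at 2897 CPM in control, 1340 at the 1-day label and 1190 at the 7-day label. All 9 B cell markers compared were lower. Of 12 T cell markers 2 were higher and 2 lower, beside 11.6% and 27.8% over all genes compared. Cd3d stood at 51.3 and 47.1 CPM. None of 7 cytotoxic effectors was called, with Gzmb, granzyme B, at 40.1 and 70.6 CPM. Of 12 conventional dendritic cell markers 1 was higher, 4 were lower and 7 were not called, beside 11.6% higher and 27.8% lower over all genes compared. Their sum stood at 358 and 367 CPM. Among the lower were the genes of cross-presenting dendritic cells Xcr1 and Clec9a, both 10.3-fold lower. Of 6 plasmacytoid markers compared 5 were lower and none higher, with Siglech 5.32-fold lower.

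The study names integrins of myeloid cells, their activator and neutrophil receptors. Itgam, the alpha chain of Mac-1, stood at 174 CPM in control, 29.8 at the 1-day label and 942 at the 7-day label, 31.6-fold higher (27.2 to 36.9). Its partner Itgb2 was 4.52-fold higher (4.07 to 5.03) and Fermt3, kindlin-3, which activates integrins, stood at 119 and 200 CPM, a ratio of 1.68 (1.503 to 1.869) that is not called. Cxcr4, a receptor that retains neutrophils in the marrow, held 26 and 114 UMIs, 8.75-fold higher, and Cd24a was 5.29-fold higher. Itgam UMIs at the 7-day label lay to 35.7% in the neutrophil gate and to 29.8% in the monocyte and macrophage gate. These gates held 26.3% and 33.2% of all UMIs at that label. Of 15 genes in the integrin list 2 were higher and 2 lower, beside 11.6% higher and 27.8% lower over all genes compared. The median log2 ratio of the list was 0.44 against -0.23 over all genes compared. Itgb1, the common beta chain of matrix-binding integrins, was 444 and 371 CPM.

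Whether these differences stood inside a gate as well as between gates was asked by comparing UMIs within a gate. In 4 of 13 gates at least 50 barcodes were present in both libraries. The gates are uneven in depth, with 1332785 and 95153 UMIs for Kupffer cells, 32331 and 1014112 for monocytes and macrophages, 2067489 and 46991 for endothelial cells and 65193 and 36636 for T cells at the 1-day and 7-day labels. Many 2-fold calls in the thin gates rest on few UMIs, and the number of called genes whose interval leaves out 1 is therefore given too.

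In the Kupffer cell gate 474 of 4075 genes compared were higher at the 7-day label (11.6%) and 563 lower (13.8%), of which 391 and 283 had an interval that left out 1. Without mitochondrial genes in the totals 236 were higher and 771 lower. Mmp12, a macrophage elastase, went from 3.001 to 610 CPM on 4 and 58 UMIs, 203-fold (75.2 to 770). Cxcl13, a B cell chemokine, was 4.46-fold higher within the gate although its level in the whole punch was 137 and 90.9 CPM. Msr1, a scavenger receptor, was 3.34-fold higher (2.69 to 4.11). Markers of other cells moved in the same gate. All 19 hepatocyte markers compared were lower, from a sum of 24369 to 294 CPM, and 10 of 14 endothelial markers, from 1936 to 305 CPM. All 4 neutrophil markers compared were higher, with the list's sum at 161 and 2281 CPM. Of 8 monocyte and macrophage markers 2 were higher and none lower, with sums of 870 and 1703 CPM. Their part in the 474 higher and 563 lower genes was not tested. Among the lower genes, Ephx1, an epoxide hydrolase, had 97 UMIs at the 1-day label and 0 at the 7-day label, at least 2.31-fold lower, and Apoc1 was 2.14-fold lower (1.83 to 2.53). The complement genes that had been lower in the punch were near even in the gate. C1qa was at 1.18-fold (1.02 to 1.37) and C1qb at 1.02-fold (0.910 to 1.13). The median over 12 uptake genes that are no markers of the gate was -0.17. With a marker of the gate included it was 0.02 over 13 genes, against -1.65 over the 13 compared in the punch.

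In the monocyte and macrophage gate 718 of 3022 genes were higher (23.8%) and 174 lower (5.76%), of which 250 and 74 had an interval that left out 1. Without mitochondrial genes in the totals 486 were higher and 327 lower. The gate at the 1-day label held 56 barcodes, and its 10 leading genes held 4 antibody genes (Igha, Igkc, Igkv10-96 and the joining chain Igj) beside 4 of its own markers. Plasma cell markers took 1.33% of its UMIs at that label. Markers of other cells moved in this gate too, with hepatocyte markers at 18929 and 335 CPM in sum at the 1-day and 7-day labels. Endothelial markers stood at 1206 and 89.7 CPM and neutrophil markers at 247 and 2130 CPM. Their part in the 718 higher and 174 lower genes was not tested. Arg1 was 5.29-fold higher (3.95 to 7.26) and Lgals3 5.47-fold (3.73 to 8.38), each less than in the punch. Spp1 went from 7 to 5243 UMIs, 23.9-fold (11.6 to 59.4). Ccl7 and Pf4, both chemokines, held 1 and 3 UMIs at the 1-day label and 936 and 1470 at the 7-day label. H2-Ab1 and Cd74, of class II antigen presentation, were 2.15-fold and 2.41-fold lower in this gate.

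In the endothelial cell gate 1054 of 5720 genes were higher (18.4%) and 487 lower (8.51%), of which 583 and 137 had an interval that left out 1. Without mitochondrial genes in the totals 572 were higher and 815 lower. Mgp, matrix Gla protein, was 41.2-fold higher (26.7 to 63.5), Ccl21a, a chemokine of lymphatic endothelium, 18.5-fold on 38 and 16 UMIs, and Adamts1, a matrix protease, 12.2-fold (7.72 to 18.7). Ltbp4, which binds latent TGF-beta, went from 536 UMIs to 1, a ratio of 0.0821 (0.00207 to 0.459), and Ehd3, of sinusoidal endothelium, was 2.37-fold lower (1.68 to 3.44). Collagens of the basement membrane were higher here and lower in the punch, with Col4a1 2.45-fold (1.65 to 3.52), Col4a2 3.65-fold and Col18a1 3.41-fold higher within the gate. Sparc was likewise 2.69-fold higher (2.19 to 3.29). H2-Ab1 was 4.76-fold lower. The gate does not separate sinusoidal from other endothelial cells, and it held 85 barcodes at the 7-day label. A different mix of these cells and a change within 1 kind of them cannot be told apart here. Markers of other cells moved in this gate as well, with hepatocyte markers at 24176 and 490 CPM in sum, Kupffer cell markers at 1979 and 106 CPM and neutrophil markers at 173 and 2958 CPM, and their part was not tested.

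In the T cell gate 45 of 256 genes were higher (17.6%) and 17 lower (6.64%), and without mitochondrial genes in the totals 33 and 20. Gzmb was 5.41-fold higher (3.40 to 8.87), Ms4a4b, a membrane protein of T cells, 4.42-fold (3.27 to 6.04) and Ccl5 3.14-fold (2.57 to 3.84). The named genes on the lower side were 3, Rpl12, Hmgb1 and Rps21, whose ratios of 0.636, 0.517 and 0.648 were not called. Markers of other cells moved in the T cell gate too, with hepatocyte markers at 13636 and 191 CPM in sum. Monocyte and macrophage markers stood at 736 and 3767 CPM and neutrophil markers at 123 and 1556 CPM. Natural killer (NK) cell markers stood at 537 and 1419 CPM. Their part in the higher and lower genes was not tested.

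Glycolysis genes were higher within each gate as well as in the punch. The counts were 9 of 12 members compared in the Kupffer cell gate, 16 of 20 in the monocyte and macrophage gate, 12 of 17 in the endothelial cell gate and 3 of 4 in the T cell gate, with none lower and medians of 1.45, 2.02, 1.77 and 1.45. Pkm, for example, held 226 and 100 UMIs in the Kupffer cell gate, a ratio with an interval from 4.85 to 7.88, and was 5.07-fold higher (2.90 to 9.83) in the monocyte and macrophage gate and 6.23-fold (4.49 to 8.47) in the endothelial cell gate. Fth1 was higher in all 4 gates, by 3.88-fold to 4.97-fold. The levels at the 7-day label were 29276 CPM of Fth1 and 1903 CPM of Pkm in the neutrophil gate, 22712 and 1775 CPM outside all gates and 5541 and 1065 CPM in the T cell gate, and the part of free RNA in the rises within gates was not tested. The neutrophil-directed chemokines, which free RNA could also bring into a barcode, had medians of 3.69 to 4.66 in the Kupffer, endothelial and monocyte and macrophage gates, and Cxcl2 was 26.4-fold higher (18.7 to 37.7) in the Kupffer cell gate. The level of Cxcl2 at the 7-day label was 1030 CPM there, 2788 in the endothelial and 10782 in the neutrophil gate, and the part of free RNA was not tested. Mitochondrially encoded genes of the respiratory chain were lower in each gate, with medians of -1.80, -1.73, -1.12 and -1.55 for the Kupffer, monocyte and macrophage, endothelial and T cell gates.

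**Figure D4:**
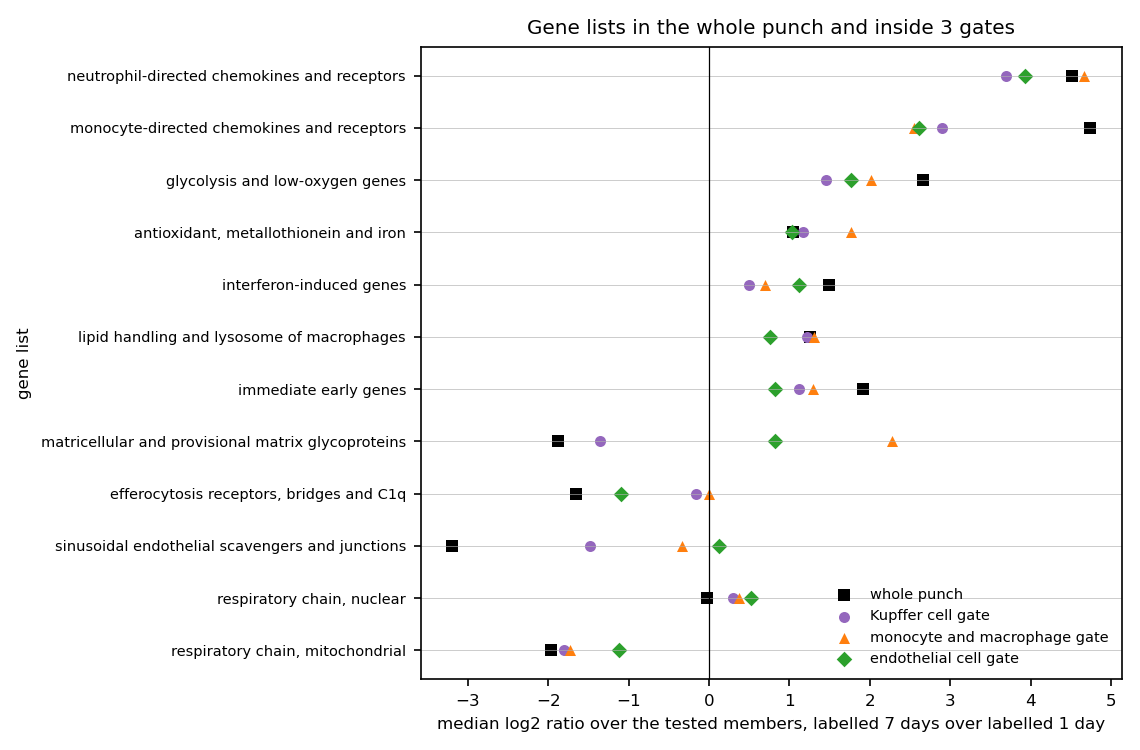
Median log2 ratio of 12 gene lists, library labelled 7 days over library labelled 1 day, in the whole punch (squares) and inside the Kupffer cell (circles), monocyte and macrophage (triangles) and endothelial cell (diamonds) gates, each shown where at least 4 members were compared that are not markers of the gate. Glycolysis genes lie above 0 in all 4. Sinusoidal scavengers lie at -3.19 over 14 genes in the punch and at 0.13 over 9 genes inside the endothelial gate.

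**Figure D5:**
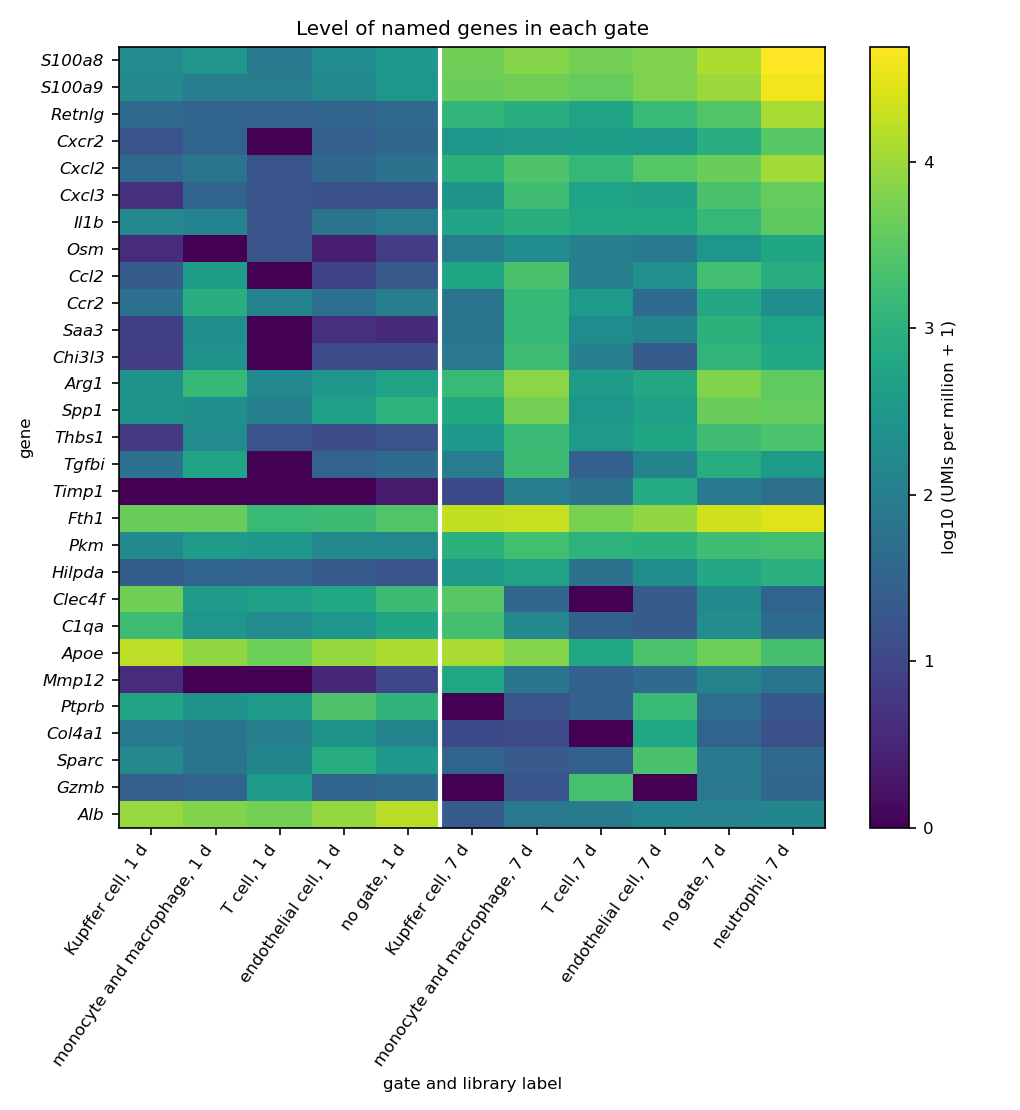
Level of selected genes (rows) in the gates of the libraries labelled 1 day and 7 days (columns), as log10 of CPM plus 1. S100a8 is highest in the neutrophil gate at the 7-day label, at 48868 CPM, and Alb is present in every gate at the 1-day label.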

How the data were processed

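Drop-seq UMI counts per gene and barcode were deposited without normalization for 3 libraries, 1 per condition, each from 3 pooled livers. According to the file headers the authors counted reads on the sense strand with a mapping quality of at least 10, merging UMIs within 1 edit. The submitters' processing notes name STAR 2.5.2a and hg19, a human build, although the symbols are those of mouse, so that no coordinates were taken from the files. Barcodes with at least 200 genes were kept, their counts summed per library and scaled to counts per 1000000 UMIs (CPM). Intervals are exact Poisson, Clopper-Pearson and conditional binomial ones at 95%. A gene at 0 was set to 3 counts for a bound, was called only in the direction of the 0, and no ratio was given with both counts at or under 3. Doublets were kept and no caller was run. Kept barcodes numbered 10386, 9253 and 5624 and the floor of 3 counts was 0.374, 0.491 and 0.981 CPM in control, at the 1-day and at the 7-day label.

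The members, lists and markers were chosen with earlier results of these data known. Of 587 list entries 4 matched no gene. Named genes are the 12 largest rises and falls of the punch by the interval bound nearest to 1, up to 4 members of each list with the most UMIs, 5 rises and falls per gate without lineage markers or genes of other gates, and 5 genes of the study, with others chosen after their values were seen. After the data were seen, a gene was left out of a gate's named genes when its level was higher in another gate. Markers of a gate were also left out, after the data were seen, of the list medians drawn within it. Promoter motifs were searched in RefSeq promoters of GRCm38.p6. Scripts used Python 3.11.15, numpy 2.4.6, scipy 1.17.1 and pandas 2.3.3 and were tested on simulated data. Alternatives changed the barcode minimum, the scaling, the UMI minimum, shared or deep barcodes, the gate's markers and the depth per barcode.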

Additional observations from a re-analysis of the deposited data

Results flagged for a closer look

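Within gates, 10 genes were at least 2-fold higher at the 7-day label in 1 gate and at least 2-fold lower in another, each with an interval that left out 1. The difference between the gates was not tested for any of them. Ccl5 had a log2 ratio of 1.65 in the T cell gate and -2.84 in the endothelial cell gate. Gimap4, a GTPase of lymphocytes, had 1.11 in the T cell gate and -3.37 in the Kupffer cell gate, and Ms4a4b 2.14 and -1.61 in the same gates. Matrix and endothelial genes were higher in the endothelial cell gate and lower in the Kupffer cell gate, with Col4a1 at 1.29 and -2.96, Sparc at 1.43 and -2.36 and Tm4sf1 at 2.09 and -2.63. Ear2, a ribonuclease, had 1.94 in the Kupffer cell gate and -2.35 in the monocyte and macrophage gate. Epb4.1l2 had 1.15 in the endothelial cell gate and -1.57 in the monocyte and macrophage gate, Fkbp3 1.03 and -1.69 and Lsm3 2.18 and -1.75 in the same gates. Markers of other cells moved with these genes. Endothelial markers fell from 1936 to 305 CPM in the Kupffer cell gate, where 10 of 14 were lower, and T cell markers stood at 281 and 42.6 CPM in the endothelial cell gate and at 191 and 116 CPM in the Kupffer cell gate. Their part in these values was not tested. Most of the lower values rest on few UMIs at the 7-day label, such as 1 UMI of Col4a1 and Gimap4, 3 of Sparc and Ms4a4b and 2 of Ccl5, or on the 56 barcodes of the monocyte and macrophage gate at the 1-day label.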

How the results depend on the processing

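No paired analysis was possible because each condition was 1 pooled library, and no library could be left out. The median log2 ratio over all genes was -0.105 with barcodes of at least 400 genes, -0.525 without mitochondrial genes, -0.584 also without hepatocyte markers, -0.00768 with TMM, -0.0190 with at least 200 UMIs and -0.559 with no minimum, and it turned to 0.0416 with median-of-ratios scaling. The genes at least 2-fold lower numbered 1226 with at least 200 UMIs and 4743 with no minimum. The cause was not tested beyond the genes and scale each setting itself changes. For every deposited barcode, for barcodes of at least 400 genes and for gates of at least 3 markers, the shares at the 1-day label were 19.6%, 25.5% and 17.6% for Kupffer cells and 33.6%, 34.2% and 31.6% for endothelial cells, and the shares at the 7-day label were 18.1%, 42.5% and 22.4% for monocytes and macrophages and 44.1%, 13.2% and 22.8% for neutrophils. Monocytes and macrophages at the 1-day label were 0.435% and 0.249% with every barcode and with 3 markers, neutrophils 0 with 400 genes and 0.108% with 3 markers. At the 7-day label Kupffer cells were 1.48% and 3.82% and endothelial cells 0.914% and 2.25% with every barcode and with 400 genes. Thinned to 300 UMIs, Kupffer and endothelial cells at the 1-day label were 23.0% and 34.5% and monocytes and macrophages at the 7-day label 27.3%, with 298 and 545 barcodes left out. Hepatocyte markers took 2.88%, 4.42% and 3.04% of UMIs at the 1-day label and 0.0578%, 0.0381% and 0.0382% at the 7-day label with every barcode, with 400 genes and without shared barcodes. Within gates, T cells had 24 higher and 11 lower genes with 3 markers, and without mitochondrial genes Kupffer cells had 236 higher, monocytes and macrophages 327 lower and endothelial cells 572 higher and 815 lower. The monocyte and macrophage gate at 3 markers had under 50 barcodes at the 1-day label and gave no value. Of 154 named genes 136 were called, and none of these changed direction under 9 alternatives. A change of direction was not counted for the named genes that were not called. Of the 136 called, 7 lost the 2-fold call under at least 1 alternative, Adm, C1qb, Ifi27l2a, Hspa5, Glul, mt-Co1 and Il7r. The median of 5 lists (nuclear respiratory chain, class II, heat shock, growth factors, cytotoxic effectors) changed sign with the setting. The depth of 36636 to 95153 UMIs in 3 gates at the 7-day label limits what could be called within them.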
